A study of Saccharomyces cerevisiae with 12 samples.

Results

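The comparison described here set transcript levels of a Saccharomyces cerevisiae strain without ZTA1, called ∆zta1, against those of its wild type, FY834α, when both had been exposed to hydrogen peroxide. It comprised every array labelled H2O2, which was 6 of the 12 arrays of the series, and it covered 5594 genes. Per the labels, both strains grew exponentially in rich YPD medium at 30ºC, and peroxide was given at 10 mM for 30 min. The 6 arrays formed 3 pairs of RNA samples, ∆zta1 with wild type, and every pair was run on 2 arrays of opposite dye orientation. The other 6 arrays held 3 pairs of the same strains without peroxide. No array set treated against untreated cells, so every value below is a difference between strains and none is a response to peroxide. The labels do not say how ZTA1 was deleted, whether ∆zta1 was 1 clone, or whether pairs came from separate days.

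ZTA1 (YBR046C) encodes the yeast zeta-crystallin, an NADPH-dependent quinone reductase that also binds AU-rich elements in messenger RNA, a class of sequence that affects how fast a transcript decays. Peroxide in yeast is met by enzymes that destroy it, namely catalases, peroxiredoxins and glutathione peroxidases, and by the thioredoxin, glutathione and pentose phosphate systems that supply their electrons. The transcription factors Yap1 and Skn7 switch on many of these genes, while Msn2 and Msn4 drive a broader stress programme and growth genes such as those of ribosome synthesis are turned down.

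Under peroxide the transcript profiles of the strains were close. The mean log2 ratio (∆zta1 over wild type) of 5580 genes, 99.7% of all, lay within 1.25-fold of equality, and 4 genes were over 2-fold apart. A gene passed when its limma p, adjusted by Benjamini-Hochberg over all genes, was under 0.05. In this test 12 of 5594 genes passed, or 0.215%, with 4 higher in ∆zta1 (0.0715%) and 8 lower (0.143%). The lower genes were ZTA1, YCL021W-A, COS12, YIR042C, COS1, SRX1, YGL262W and YPC1. The higher genes were FMP23, NOB1, GIP1 and IMD2. The p-values rest on the spread between these 3 pairs, which limma draws toward a value common to all genes. That common value carried 6.57 prior degrees of freedom, against 2 residual ones of the gene itself. Without an adjustment 437 genes had a p under 0.05, of which 301 were lower and 136 higher.

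**Figure D1:**
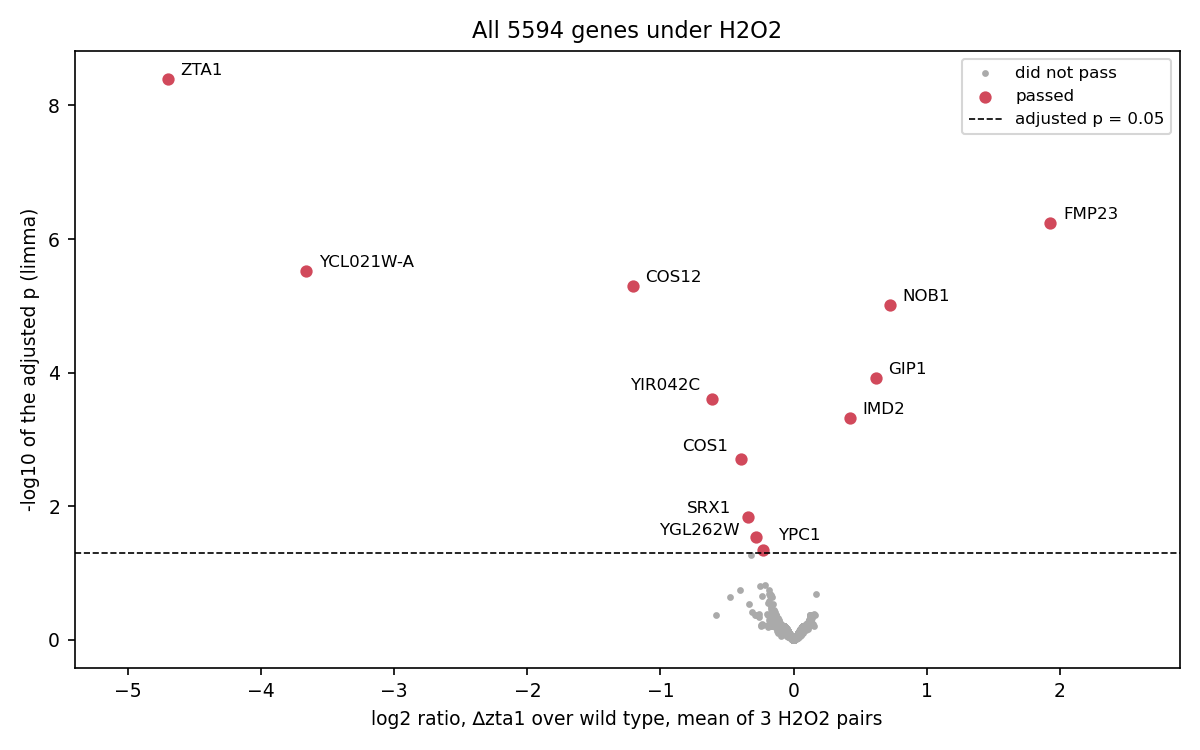
Mean log2 ratio of ∆zta1 over wild type in the 3 H2O2 pairs (horizontal axis) against -log10 of the limma adjusted p (vertical axis) for all 5594 genes. The dashed line is the threshold, the 12 genes above it are named, and nearly all other genes lie close to a ratio of 0.

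The deleted gene itself had the lowest ratio of the profile. On the arrays of pairs 1, 2 and 3 its log2 ratio was -5.13, -5.91 and -4.61 where Cy5 marked ∆zta1 and -4.80, -3.21 and -4.54 where Cy3 did. All 6 arrays were thus strongly negative. The direction of the ratios was read from the array titles and from ZTA1 together, so its sign is no independent check of that direction, but it was the same on every array. The pair means were -4.96, -4.56 and -4.58, which gave -4.70 ± 0.229 (SD, n = 3), a transcript signal 26.0-fold lower in ∆zta1 (adjusted p = 4.0e-09). The array of pair 2 with ∆zta1 in Cy3 had the smallest ratio, and the same array also had the smallest ratio of the 6 for FMP23, YCL021W-A, COS12, NOB1, GIP1, YIR042C and COS1.

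Both chromosomal neighbours of ZTA1 were higher in ∆zta1. FMP23 (YBR047W), on one side, encodes a mitochondrial protein. Its log2 ratio was 2.11, 1.79 and 1.89 in pairs 1, 2 and 3, a mean of 1.93 ± 0.169 (SD, n = 3) or 3.81-fold (adjusted p = 5.8e-07). It was the most strongly raised gene of the profile, and the only one over 2-fold higher in any of the 3 pairs. GIP1 (YBR045C), on the other side, encodes a meiosis-specific partner of the protein phosphatase Glc7. Its log2 ratio was 0.60, 0.55 and 0.70, a mean of 0.62 ± 0.078 (SD, n = 3) or 1.53-fold (adjusted p = 1.2e-04). The next measured genes beyond them, TCM62 at -0.034 and RPS11B at -0.085 on the log2 scale, did not pass (adjusted p = 0.806 and 0.622). GIP1 was the only one of 49 measured genes of meiosis and sporulation to pass, and the median log2 ratio of that list was -0.027.

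Away from this locus, NOB1 and IMD2 were the genes that rose. NOB1 (YOR056C) encodes the endonuclease that makes the mature end of 18S ribosomal RNA. Its log2 ratio was 0.75, 0.71 and 0.71 in the 3 pairs, with a mean of 0.72 ± 0.022 (SD, n = 3), 1.65-fold (adjusted p = 9.7e-06). Its 6 arrays ranged from 0.60 to 0.82, so the result did not rest on a dye orientation. IMD2 (YHR216W) encodes an IMP dehydrogenase, an enzyme of guanine nucleotide synthesis. Its pairs were nearly identical at 0.42, 0.42 and 0.42, with a mean of 0.42 ± 0.003 (SD, n = 3), 1.34-fold (adjusted p = 4.8e-04). The evenness of these pair means hid a split by dye, since IMD2 averaged 0.22 over arrays where Cy5 marked ∆zta1 and 0.62 where Cy3 did. It was positive on all 6 arrays.

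**Figure D2:**
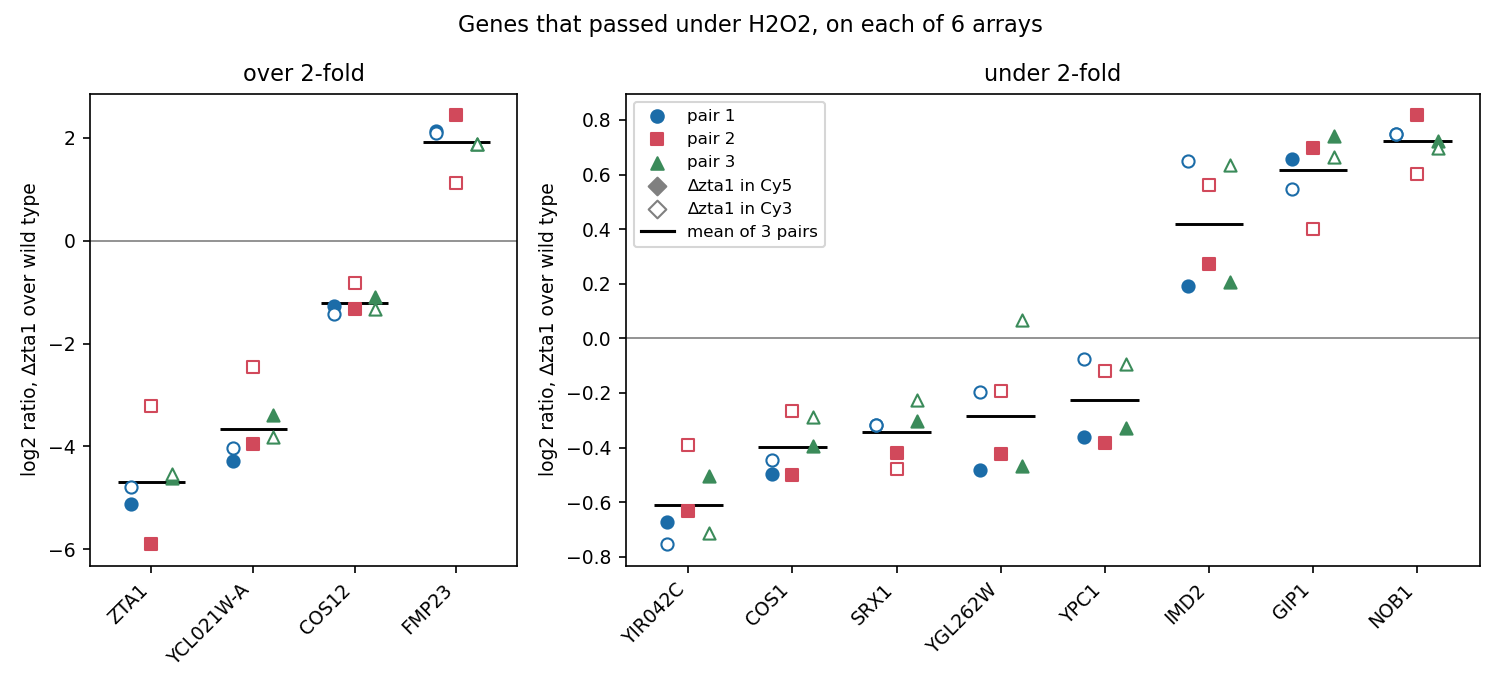
Log2 ratio of ∆zta1 over wild type (vertical axis) of the 12 passing genes on each of the 6 H2O2 arrays, with genes over 2-fold at the left and the others at the right on a wider scale. Shape and colour give the pair, filled points have ∆zta1 in Cy5, open points have it in Cy3, and the line is the mean of the 3 pairs. YGL262W is the only gene with an array on the other side of 0.

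The strongest fall after ZTA1 was that of YCL021W-A, a small open reading frame of unknown function. Its arrays ranged from -4.29 to -2.46 and its pairs read -4.17, -3.21 and -3.61, a mean of -3.66 ± 0.481 (SD, n = 3), 12.6-fold lower (adjusted p = 3.0e-06). The next measured gene on chromosome III, LEU2, an enzyme of leucine synthesis and a common selection marker, had a log2 ratio of 0.0018 under peroxide and did not pass (adjusted p = 0.995). YIR042C, also of unknown function, had -0.71, -0.51 and -0.61, a mean of -0.61 ± 0.101 (SD, n = 3), 1.53-fold lower (adjusted p = 2.5e-04). All 6 arrays of either gene were negative. Without pair 3 YIR042C had an adjusted p of 0.0563 at the same log2 ratio of -0.61.

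The COS genes, a subtelomeric family of membrane proteins, included 2 genes that fell. COS12 (YGL263W) read -1.35, -1.07 and -1.21 on the log2 scale in pairs 1, 2 and 3, a mean of -1.21 ± 0.137 (SD, n = 3), 2.31-fold lower (adjusted p = 5.1e-06). COS1 (YNL336W) had -0.47, -0.38 and -0.34, a mean of -0.40 ± 0.066 (SD, n = 3), 1.32-fold lower (adjusted p = 0.0020, and 0.0563 without pair 3). These were the 2 of 12 measured genes on the COS list that passed. Of the others, COS5 had a mean log2 ratio of -0.25, COS6 -0.18, COS4 -0.17, COS8 -0.16 and COS7 -0.15. COS111, on the list by its name but not of the subtelomeric family, was the only gene of the list above 0, at 0.066. The median of the list, COS111 included, was -0.156, with pair medians of -0.18, -0.15 and -0.13. The median of all genes was -0.0023. Of the 12 genes on the list 10 were below 0 in all 3 pairs, against 885 of all 5594 genes. Many COS genes are similar in sequence, so their probes may share signal and the members are not independent measurements.

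YGL262W, of unknown function, is the next measured gene to COS12 and fell weakly. Its pairs read -0.34, -0.31 and -0.20, a mean log2 ratio of -0.28 ± 0.073 (SD, n = 3), 1.22-fold lower (adjusted p = 0.0286). With ∆zta1 in Cy5 it averaged -0.46, but with ∆zta1 in Cy3 only -0.11, and 1 array of pair 3 read 0.066. Its adjusted p was 0.0578 without pair 2, 0.113 without pair 3, and 0.125 in a fit of single arrays with a dye term. COS12, YGL262W, YIR042C, COS1 and IMD2 were all among the 3 outermost measured genes of a chromosome end, a class that holds 96 genes or 1.72% of all. The median log2 ratio of these 96 genes was -0.012, and 50 of them were below 0. This grouping by position was chosen after the values were seen.

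SRX1 was the only gene of the peroxide defence lists to pass. SRX1 (YKL086W) encodes sulfiredoxin, which repairs peroxiredoxins that peroxide has over-oxidised. Its log2 ratio was -0.32, -0.42 and -0.30 on the arrays where Cy5 marked ∆zta1 and -0.32, -0.48 and -0.23 where Cy3 did. The 6 arrays were all negative and alike in either dye orientation (means of -0.35 and -0.34). Pair means of -0.32, -0.45 and -0.26 gave -0.34 ± 0.095 (SD, n = 3), 1.27-fold lower in ∆zta1 (adjusted p = 0.0144). Without pair 3 the adjusted p was 0.154, although the log2 ratio of -0.38 was no smaller in size.

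None of the other 10 genes of the peroxiredoxin and thioredoxin list passed. The peroxiredoxins themselves, which reduce peroxide at a reactive cysteine, had mean log2 ratios of 0.0026 for TSA1, -0.053 for TSA2, 0.033 for AHP1, -0.15 for PRX1 and -0.025 for DOT5. Among the thioredoxins, TRX2 had -0.11 and TRX1 -0.076, and their reductase TRR1 had -0.032. The mean of TSA1 near 0 came from pairs that disagreed, at 0.27, -0.072 and -0.19. AHP1 split by dye, with -0.57 in Cy5 and 0.63 in Cy3. The list median was -0.032 over the pair means, but 0.072, -0.050 and -0.10 in pairs 1, 2 and 3.

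Catalases and superoxide dismutases did not pass either. CTT1, the cytosolic catalase, read -0.028, 0.021 and -0.089 on the log2 scale in the pairs, a mean of -0.032 with a 95% interval of -0.11 to 0.050. CTA1, the peroxisomal catalase, had a mean of 0.046 (95% interval -0.035 to 0.13). SOD1, the copper-zinc superoxide dismutase, read 0.26, -0.17 and -0.21, and the mitochondrial SOD2 read 0.17, -0.019 and -0.16. Both dismutases were thus above 0 in pair 1 and below 0 in pairs 2 and 3. Cytochrome c peroxidase (CCP1) had a mean of -0.044.

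The pentose phosphate pathway supplies NADPH to these systems, and none of its 16 measured genes passed. ZWF1, glucose-6-phosphate dehydrogenase, had log2 ratios of 0.083, 0.0061 and -0.19, a mean of -0.035 (95% interval -0.15 to 0.083). GND1, the main 6-phosphogluconate dehydrogenase, had a mean of 0.0064, and its isozyme GND2 had 0.095, 0.084 and 0.12, a mean of 0.10 ± 0.020 (SD, n = 3, adjusted p = 0.581). TAL1, transaldolase, had -0.043 and TKL1, transketolase, 0.019. The widest means were those of YEF1, an NADH kinase, at -0.13, and GND2.

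**Figure D3:**
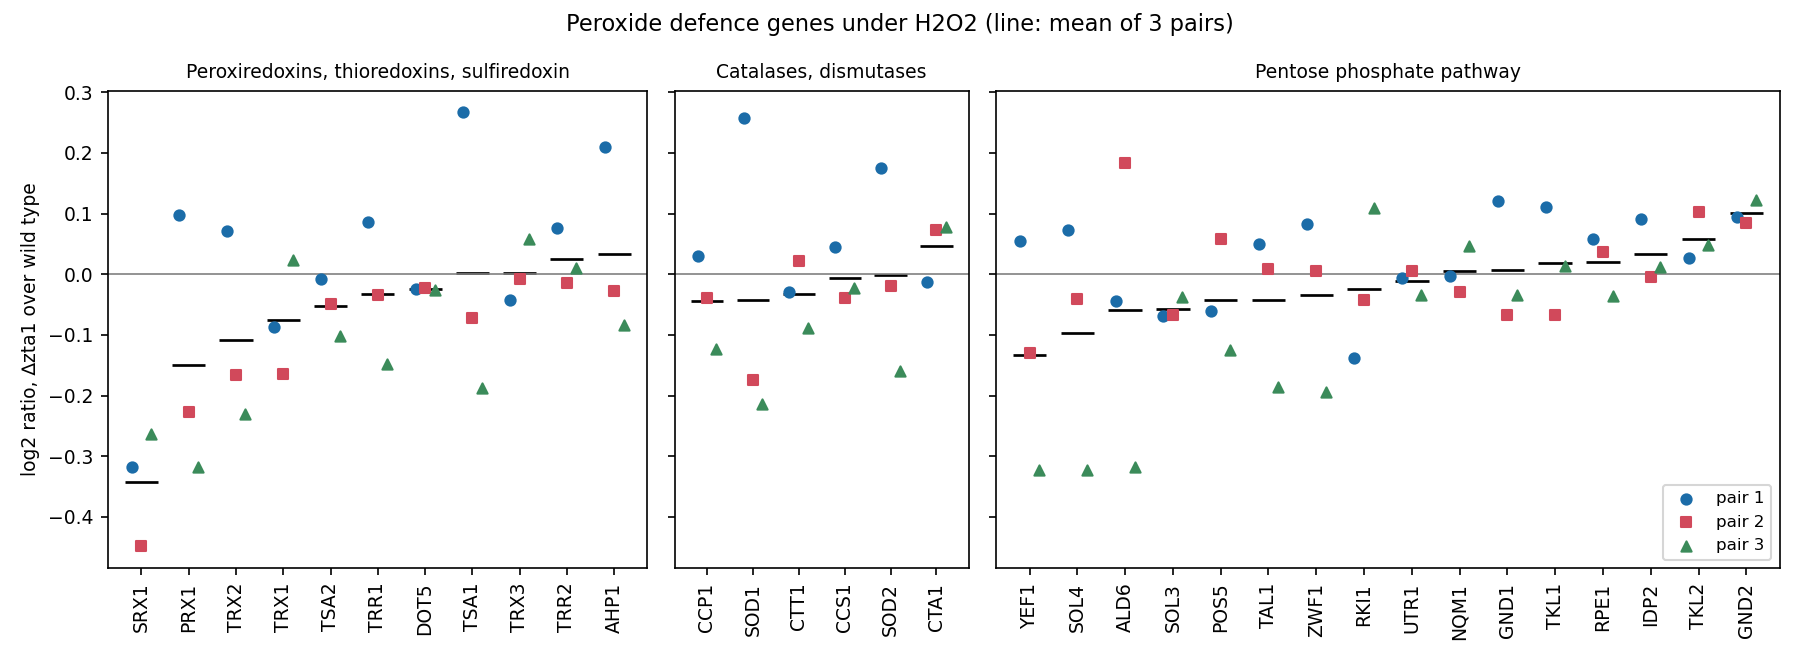
Log2 ratio of ∆zta1 over wild type (vertical axis) in each H2O2 pair for the genes of the peroxiredoxin and thioredoxin, catalase and dismutase, and pentose phosphate lists. Shape and colour give the pair and the line is the mean. SRX1 is the only gene that passed, and for many others pair 1 lies above pair 3.

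The glutathione system, regulators and detoxification genes held no passing member. Of 24 glutathione genes 20 had a mean below 0, against 2913 of all 5594 genes, with a median log2 ratio of -0.037. OPT1, a glutathione transporter, had -0.15, the glutaredoxins GRX7 and GRX2 had -0.13 and -0.11, and GTT2, a glutathione transferase, had 0.11. The 23 regulators had a median of -0.0086 and ranged from -0.12, the value of TPK2, a catalytic subunit of protein kinase A, to 0.033. Among 25 transport and detoxification targets of Yap1 the median was -0.044, and the glutathione exchangers GEX2 and GEX1 had -0.17 and -0.16 (adjusted p = 0.207 and 0.230).

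Relatives of Zta1 were also measured. The list of 22 quinone and enone reductases and medium-chain oxidoreductases had a median log2 ratio of -0.051, and no member passed. Of its members 20 were below 0 and 9 below 0 in all 3 pairs, against 2913 and 885 of all 5594 genes. YCP4, a flavodoxin-like protein, had -0.11, the sorbitol dehydrogenases SOR1 and SOR2 had -0.079 and -0.067, and BDH2, a relative of butanediol dehydrogenase, had -0.17. The other activity of Zta1 was covered by 43 genes that act in transcript decay or bind AU-rich elements, which had a median of 0.0088 and no passing member. PUB1, an RNA-binding protein that also binds AU-rich elements, had pairs of -0.099, -0.0067 and -0.21 and a mean of -0.10. DCS1, an enzyme that degrades cap structures, had -0.098.

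None of the 53 measured general stress targets of Msn2 and Msn4 passed, although 50 of them had a mean log2 ratio below 0, against 2913 of all 5594 genes. Their median was -0.070. The pairs did not share this, with medians of 0.029, -0.086 and -0.19 in pairs 1, 2 and 3. HXK1, a hexokinase, read -0.16, -0.46 and -0.82, a mean of -0.48 ± 0.333 (SD, n = 3), which did not pass (adjusted p = 0.228). Glycogen and trehalose genes showed the same order of pairs (0.043, -0.041 and -0.13), and GPH1, glycogen phosphorylase, had -0.037, -0.30 and -0.53 (adjusted p = 0.433). YGP1 (YNL160W), a secreted glycoprotein made by starved cells, came nearest to passing of all genes that did not. Its pairs were -0.21, -0.29 and -0.46, a mean of -0.32 ± 0.128 (SD, n = 3), 1.25-fold lower (adjusted p = 0.0540). A fit that shared the spread of treated and untreated pairs gave YGP1 an adjusted p of 0.0339, while YGL262W no longer passed in it (adjusted p = 0.0504).

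Of the 3 fits that left out a pair, the one without pair 1 moved the count of passing genes most. With pairs 2 and 3 alone, 83 genes passed (1.48% of all), 76 of them lower, and the 12 genes were all among them. These 83 included 18 of the 53 Msn2 and Msn4 genes, 6 of 21 glycogen and trehalose genes and 4 of 25 hexose transport genes. Also among the 83 were 3 of 12 genes on the COS list, 3 of 20 multidrug transport genes and 3 of 11 peroxiredoxin and thioredoxin genes. Of the 38 lists, 22 held at least 1 of the 83 genes and 16 held none. HXK1 then had a log2 ratio of -0.64 (adjusted p = 4.3e-14), the high-affinity glucose transporter HXT7 -0.54 (adjusted p = 1.8e-12) and PRX1 -0.27 (adjusted p = 3.1e-04). Only 1 residual degree of freedom per gene was left, and limma's prior degrees of freedom were 61.1 against 6.57 with all 3 pairs, so that nearly the same spread was assumed for every gene. GRS2, a glycyl-tRNA synthetase, passed in that fit although its pairs read 0.015 and -0.97. Leaving out pair 3 gave the opposite, with 7 genes passing. That fit also had 1 residual degree of freedom and only 4.18 prior ones, so a call lost in it need not mean a weaker ratio.

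Growth and energy genes are given for comparison. Of 107 ribosome biogenesis genes, 90 had a mean above 0, against 2681 of all 5594 genes. The list median log2 ratio was 0.032, and NOB1 was the only member to pass. After NOB1 the smallest p belonged to KRI1, a nucleolar protein, at 0.13 (adjusted p = 0.433). The pair medians of the list were -0.042, 0.029 and 0.12, so pair 1 lay on the other side of 0, and the list median was -0.0048 without pair 3. The 55 nuclear genes of respiration had a median of -0.051 with 49 below 0, against 2913 of all 5594 genes. Their pair medians were -0.0088, -0.082 and -0.067, so pair 1 lay near 0. In all 3 pairs 18 of the 55 were below 0, against 885 of all 5594 genes. RIP1, the Rieske subunit of complex III, had -0.12, -0.18 and -0.13 (adjusted p = 0.382). Cytosolic ribosomal proteins (134 genes, median -0.0099) and glycolytic genes (27 genes, median -0.012) split by dye, with medians of -0.13 and -0.27 in Cy5 and of 0.090 and 0.11 in Cy3.

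Sphingolipid genes included the last gene to pass. YPC1 (YBR183W) encodes a ceramidase, which splits ceramides into a long-chain base and a fatty acid. Its pairs were -0.22, -0.25 and -0.21, a mean log2 ratio of -0.23 ± 0.022 (SD, n = 3), 1.17-fold lower (adjusted p = 0.0458). It averaged -0.36 where Cy5 marked ∆zta1 and -0.097 where Cy3 did, and was negative on all 6 arrays. The adjusted p was 0.183 without pair 2, 0.380 without pair 3, and 0.0555 with all probes tested apart. YDC1, the other ceramidase, had -0.16, -0.070 and -0.20 (adjusted p = 0.433), and LIP1, a ceramide synthase subunit, had a mean of -0.12. Of the 29 genes of this list 24 were below 0, against 2913 of all 5594 genes, with a median of -0.057.

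Across all 38 gene lists, with 1144 of the 5594 measured genes, 32 lists had no passing member, and 7 of the 12 passing genes were on a list. The lists were chosen with earlier results of these data known, so membership of passing genes was partly fixed in advance. List medians ran from -0.156 to 0.032. In 11 lists the medians of all 3 pairs were below 0, in none were all above, and in 27 the pairs lay on both sides. Cell type markers held no passing gene, with median log2 ratios of -0.055 for 7 a-cell genes and -0.023 for 9 alpha-cell genes. Since each value is a ratio, the level of these markers, and so the mating type of either strain, was not measured.

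**Figure D4:**
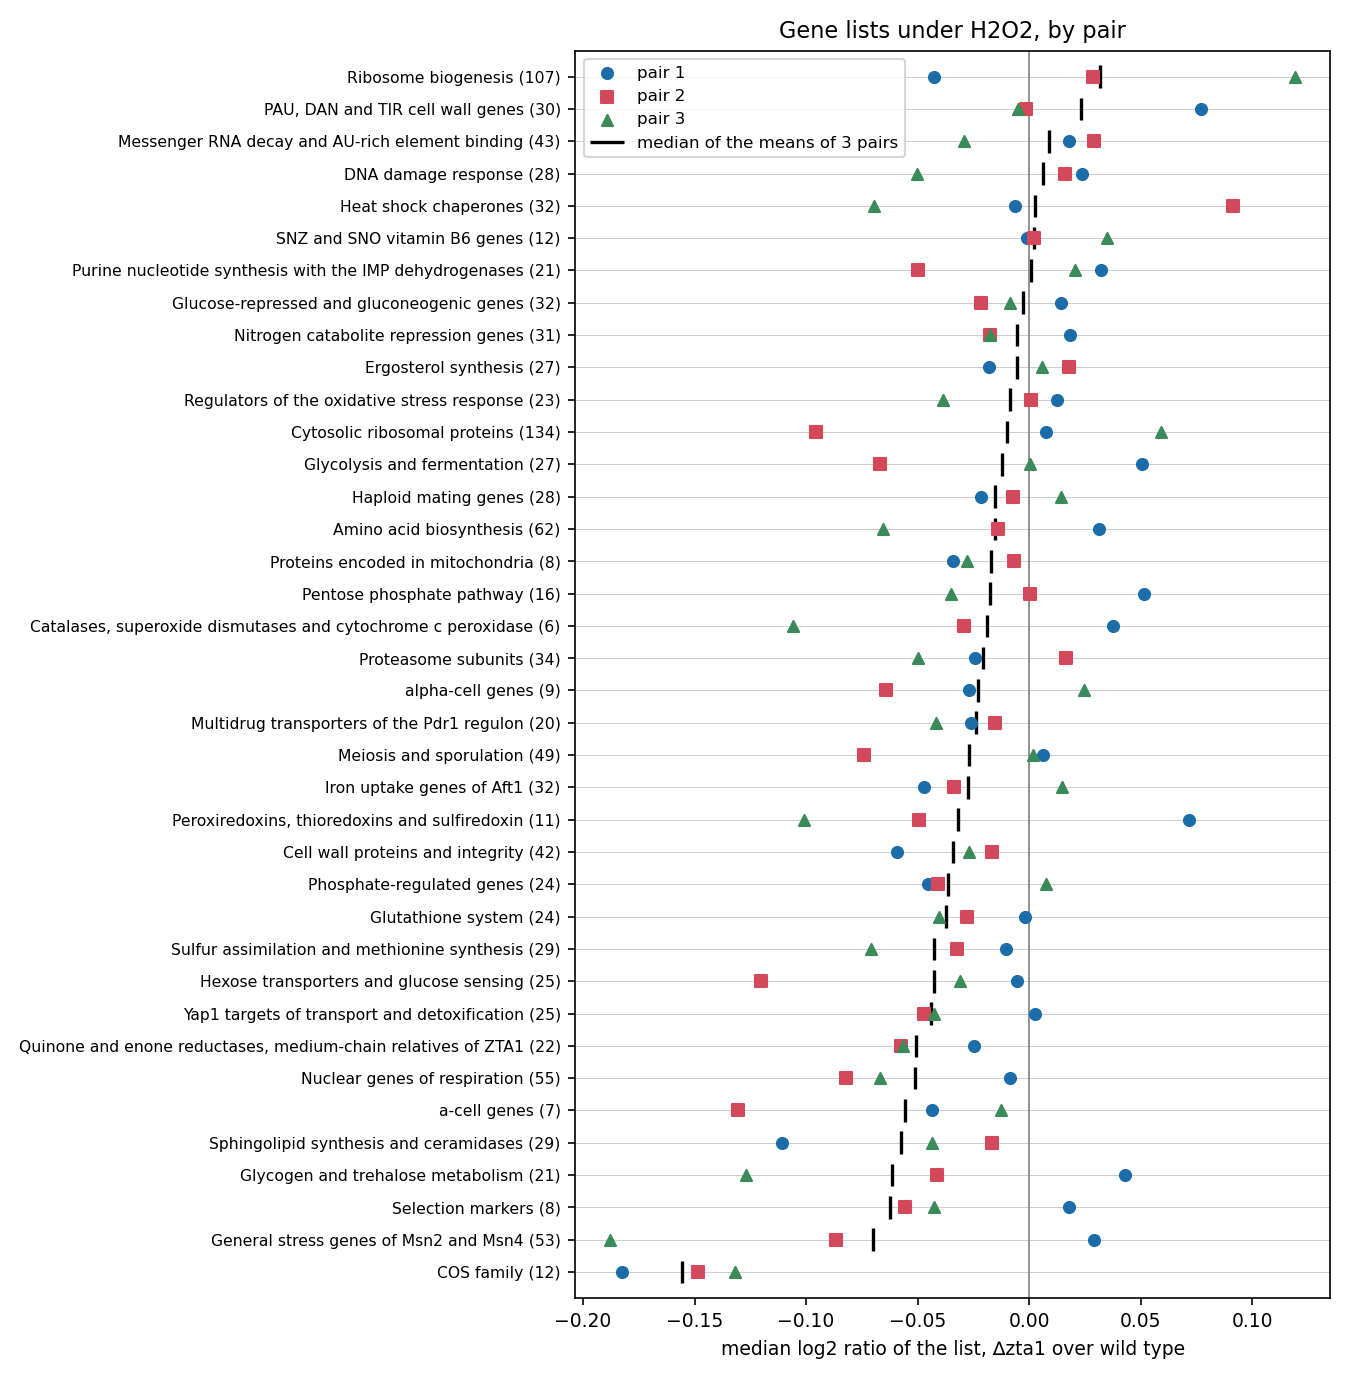
Median log2 ratio of ∆zta1 over wild type (horizontal axis) of 38 gene lists in each H2O2 pair, with the number of measured genes in brackets. Shape and colour give the pair, and the black bar is the median over the means of 3 pairs. The COS family lies lowest in the mean. The list of Msn2 and Msn4 genes and that of glycogen and trehalose genes have pair 1 above and pair 3 below 0.

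Correlation between the pairs was higher with the passing genes than without them. Across all genes Pearson's r was 0.664 between pairs 1 and 2, 0.527 between pairs 1 and 3, and 0.562 between pairs 2 and 3. Without the 12 passing genes it was 0.257, 0.0094 and 0.111 over 5582 genes. Those genes passed because they agreed across these same pairs, so a lower r without them was built in. These are correlations across genes, which are not independent replicates, and they carry no test. The 2 arrays of a pair, without the passing genes, correlated at -0.343, -0.404 and -0.211, below 0 in every pair. The genes with the widest range over pairs, named here after their values were seen, included PHO89, a phosphate transporter, at -0.61, -0.067 and 0.39, and GRS2 at -0.80, 0.015 and -0.97. Neither passed.

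The strain difference under peroxide was then set against that without it. In the test of this difference (H2O2 minus untreated, limma over 6 pairs) no gene of 5594 passed, or 0%, with a smallest adjusted p of 0.999 and 71 genes at an unadjusted p under 0.05. Of the 12 genes, 11 had the same sign in all 6 pairs, YPC1 being the exception. For 4 of the 12, GIP1, SRX1, YGL262W and YPC1, the treated and untreated pairs did not overlap, as was so for 310 of all genes (5.54%). The 12 genes were chosen by their treated pairs, which favours treated ratios farther from 0. The 4 genes were then picked because their pairs did not overlap, which favours difference intervals clear of 0. The intervals below are not adjusted for either choice. GIP1 had untreated pairs of 1.03, 0.83 and 1.06, and its difference was -0.36 (95% interval, unadjusted, -0.51 to -0.20). SRX1 had untreated pairs of -0.13, -0.11 and -0.0048, all nearer to 0 than any treated pair, and its difference was -0.26 (interval -0.39 to -0.12). YPC1 had untreated pairs of -0.052, 0.057 and -0.044 and a difference of -0.21 (interval -0.32 to -0.11). YGL262W went the other way, from untreated pairs of -0.65, -0.47 and -0.53 to a smaller treated ratio, a difference of 0.27 (interval 0.13 to 0.40).

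For the other passing genes the treated and untreated pairs overlapped. NOB1 differed by 0.033 (interval -0.087 to 0.15) and IMD2 by 0.023 (interval -0.12 to 0.17). ZTA1 differed by 0.60 (interval -0.20 to 1.39) and FMP23 by -0.44 (interval -1.20 to 0.32). Untreated pair 2 stood apart from untreated pairs 1 and 3 in both, at -4.32 for ZTA1 and 1.42 for FMP23. This was not confined to ZTA1 and FMP23. YCL021W-A read -3.00 in untreated pair 2 against -4.48 and -4.68, and the median of the amino acid biosynthesis list was -0.43 against 0.025 and -0.064. SRX1 did not show it, with -0.11 against -0.13 and -0.0048. The spread in the difference test includes untreated pair 2. Without untreated pair 2, 3 genes passed in the difference, namely FMP23 at -0.91, ZTA1 at 1.09 and GIP1 at -0.43 (adjusted p = 0.0051, 0.0051 and 0.0423). Ratios of ZTA1 rest on the residual signal in ∆zta1, for which no intensity was used here.

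**Figure D5:**
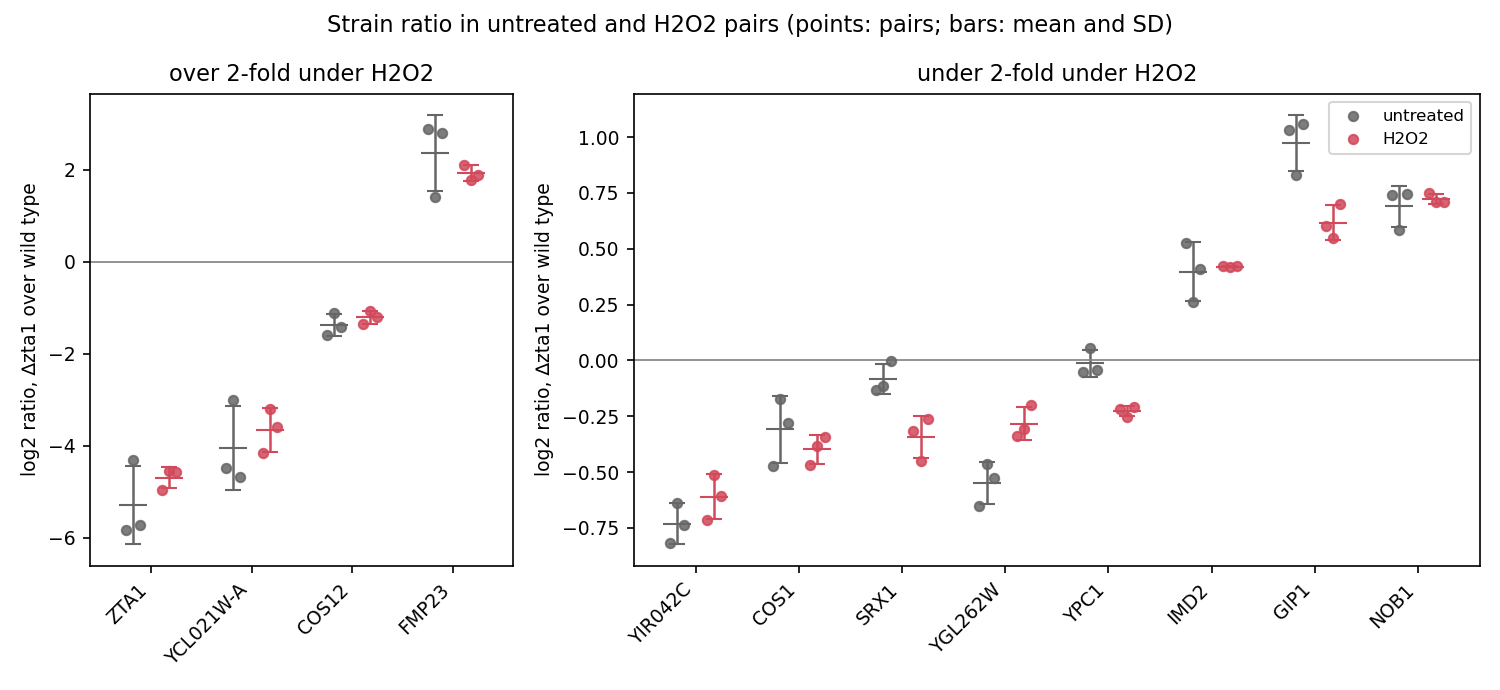
Log2 ratio of ∆zta1 over wild type (vertical axis) of the 12 genes that passed under H2O2, in the 3 untreated pairs (grey) and the 3 H2O2 pairs (red), with genes over 2-fold at the left and the others at the right. Points are pairs, and bars give the mean and SD. Treated and untreated pairs are apart for GIP1, SRX1, YGL262W and YPC1.

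The genes that followed by p did not pass. Next in order among lower genes after YGP1 were SRL4 at -0.21, COS5, HXT7 at -0.40 and YPS6, a cell surface aspartyl protease, at -0.18, with adjusted p from 0.151 to 0.178. HXT7 read -0.14, -0.47 and -0.61 in the pairs. Among higher genes the next were YHL050C at 0.17 (adjusted p = 0.207), MIX23, a mitochondrial intermembrane space protein, at 0.15 and YIH1, which counters activation of the kinase Gcn2, at 0.13. YLR162W followed at 0.16, and then the subtelomeric helicase genes YRF1-1 and YRF1-8, which are near-identical copies, at 0.13 and 0.12 (adjusted p = 0.433 for each).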

How the data were processed

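RNA of ∆zta1 and wild type was labelled with Cy5 and Cy3 and hybridised to 2-colour Agilent arrays, per the labels. The deposited values are log2 ratios per probe and array, made by the authors with limma, per the submitters' processing notes. Background correction, normalisation and the log base are not given in the sources used here. The values were read as log2, the scale limma writes, and as ∆zta1 over wild type on every array, from the titles and the negative values of ZTA1. No intensities were used, so signal over background is unknown. The precision is limited by the number of pairs, since the 2 arrays of a pair are not separate replicates.

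Of 6256 probes, 5620 had 1 gene and 636 none. All gene IDs were matched to a RefSeq table of assembly R64, used for names and gene order. Probes of a gene were averaged (25 genes). The 2 arrays of a pair were averaged, which cancels a dye effect. The first array of replicate 3 is described as replicate 2, and arrays were paired by title.

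The 3 H2O2 pair means were tested against 0 with lmFit and eBayes of limma 3.58.1 under R 4.3.3, with 2 residual degrees of freedom and 6.57 prior ones. The difference was fitted to all 6 pair means with 1 mean per treatment. Tests were two-sided, with Benjamini-Hochberg adjustment over all genes and a threshold of 0.05. Values carry the SD over pairs, and intervals are limma's 95% intervals, not adjusted. Equal replicate numbers were not taken to pair treated with untreated samples. Deviations of pairs with the same number correlated at -0.034, 0.0060 and -0.275 across genes, and those of H2O2 pair 1 and untreated pair 3 at 0.244. Such correlations cannot show whether the samples were paired.

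The text names ZTA1, the passing genes, the next 8 genes per direction by p where useful, up to 5 members of a described list by smallest p, and members of the peroxiredoxin, catalase and pentose phosphate lists. Members and gene lists, drawn from textbook knowledge, were chosen with earlier results of these data known. Alternatives covered scaling, dye, spread, weights, probes and left-out pairs. The fits were tested on simulated data.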

Additional observations from a re-analysis of the deposited data

How the results depend on the processing

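With all 3 pairs the count of 12 genes passing under H2O2 stayed between 11 and 14 when arrays were centred, or centred and scaled, in a robust fit, with weighted pairs, with a shared spread, with single arrays in 1 fit and with all probes. Calls ended within that range: YGL262W did not pass with single arrays (adjusted p = 0.125) or a shared spread (0.0504), nor YPC1 with all probes (0.0555), where 2 of the 13 had no gene. Dye effects do not cancel in fits of a single dye orientation, and their part in the counts was not tested. Arrays with Cy5 on ∆zta1 alone gave 1147 passing genes and those with Cy3 on it 187, 421 and 140 of them higher. Of the 12 genes, 12 and 10 were among them, YGL262W and YPC1 being lost in Cy3. Leaving out 1 pair gave 7 to 83 genes: 83 without pair 1, 14 without pair 2 and 7 without pair 3, where COS1, SRX1, YGL262W, YIR042C and YPC1 did not pass. With pair 2 from its Cy5 array alone, chosen after seeing the data, 9 genes passed, without SRX1, YGL262W and YPC1 (adjusted p = 0.0625, 0.145 and 0.242). ZTA1, FMP23, YCL021W-A, COS12, NOB1, GIP1 and IMD2 passed in all of these. Over the 28 named genes 321 values kept their side of the threshold, 28 gained and 15 lost it, and no sign reversed.

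For the difference, no gene passed under any setting except that leaving out 1 pair gave 0 to 3 genes, with 3 without untreated replicate 2. Replicate numbers were not taken to pair the samples, and with a replicate block in the fit 0 genes passed as well (limma, 78 at an unadjusted p under 0.05). The causes were not tested.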

Other observations

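When all probes were tested, 2 probes with no gene in the annotation also passed under H2O2. Probe A_06_P1129 had log2 ratios of 0.40, 0.31 and 0.31 in the 3 H2O2 pairs, with a mean of 0.34 ± 0.053 (SD, n = 3), and 0.37, 0.25 and 0.28 in the untreated pairs. Probe A_06_P4020 had -0.40, -0.27 and -0.25, with a mean of -0.31 ± 0.081 (SD, n = 3), and -0.46, -0.28 and -0.50 untreated. Their adjusted p from limma was 0.0068 and 0.0245.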
